A study of Homo sapiens with 9 samples.

Results

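The genes described here are 6 human mucin genes, MUC1, MUC4, MUC15, MUC16, MUC20 and MUCL1. They were taken by symbol from the deposited gene table and make up 6 of its 62666 genes. Their expression was read across 3 related breast epithelial cell lines, with 3 libraries each. MCF10A cells come from normal breast epithelium and form no tumours, MCF10AT1 cells descend from MCF10A carrying an activated HRAS gene, and MCF10Ca1a cells descend from them in turn and are malignant. The study asked how transcription changes as breast cancer advances. All were grown in DMEM/F12 with insulin, epidermal growth factor, hydrocortisone and cholera toxin, but MCF10AT1 received 2.5% horse serum and MCF10A and MCF10Ca1a 5%. Serum and line therefore cannot be told apart in comparisons with MCF10AT1. Each stage is represented by 1 line, and the labels do not say whether the 3 libraries of a line came from separate cultures, so the p-values below measure only the spread between these libraries.

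Mucins are large glycoproteins that cover epithelial surfaces. Their extracellular parts are rich in serine, threonine and proline, often in tandem repeats, and the serines and threonines carry dense O-linked glycans that begin with N-acetylgalactosamine. MUC1, MUC4, MUC15, MUC16 and MUC20 are membrane-bound, and MUC1 lies on the apical surface of the normal breast duct. Its shed form in blood is measured as the tumour marker CA15-3. MUC16 carries the CA125 antigen and binds mesothelin, MUC4 binds the receptor ERBB2, MUC20 is known for binding the receptor MET, and MUCL1 encodes a small secreted breast mucin also called small breast epithelial mucin.

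The sequences shown first are a repeat unit of MUC1, the member with the highest level, a repeat unit of MUC4, the member with the most repeat copies, and the regions upstream of MUC1 and MUCL1, whose levels moved in opposite directions between MCF10A and MCF10Ca1a. The repeat units are coding sequence from GENCODE 29, with the codons for serine and threonine in capitals.
MUC1 repeat unit: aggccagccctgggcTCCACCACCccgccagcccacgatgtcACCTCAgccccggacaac
MUC4 repeat unit: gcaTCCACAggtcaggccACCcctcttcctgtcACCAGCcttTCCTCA
Of the 20 codons of the MUC1 unit, 5 encode serine or threonine and 4 proline, and of the 16 codons of the MUC4 unit 7 encode serine or threonine and 2 proline. Copy numbers given here are those of the reference sequence, and those of the 3 lines were not measured. The MUC1 coding sequence used (transcript MUC1-228, 475 codons) held 5.33 copies of a 60-base period, covering 22.5% of it. The unit printed occurs 1 time in exactly that form. MUC4 held about 206 copies of its 48-base period, covering 60.9% of 16236 coding bases, and the unit printed occurs 12 times without change. MUC16 held a 468-base period over 8.75% of its coding sequence. For MUC20 the search kept a 285-base period over 50.9%. The MUC20 unit at that period holds shorter copies in a row beside sequence without them. Neither its period nor its share therefore gives the basic repeat of MUC20. The search, for periods of 15 to 600 bases with at least 75% identity to the next copy, found none in MUC15 or MUCL1, and found one in 3.96% of 19524 genes. Serine, threonine and proline together took 36.4% of the codons of MUC1, 48.0% of MUC4, 31.9% of MUC15, 44.6% of MUC16, 42.2% of MUC20 and 32.2% of MUCL1, against a median of 18.7% over all genes. The lowest share, that of MUC15, was reached by 1.59% of genes, so the composition is shared by all 6 members, also by those without a repeat.

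The upstream sequences are from RefSeq (GRCh38.p14), 250 bases up to the start site, 5′ to 3′ on the gene's strand. The MUC1 sequence lies at chr1:155192916-155193165 on the minus strand and ends at the start of MUC1-228, and that of MUCL1 at chr12:54854266-54854515 on the plus strand, and ends at the start of MUCL1-203 (ENST00000547958), which had 0 counts in every library. The transcript with nearly all MUCL1 counts, ENST00000308796, starts at 54854537. Capitals mark TATAAA and GGGCGG, the letters of a TATA box and a GC box.
MUC1 upstream: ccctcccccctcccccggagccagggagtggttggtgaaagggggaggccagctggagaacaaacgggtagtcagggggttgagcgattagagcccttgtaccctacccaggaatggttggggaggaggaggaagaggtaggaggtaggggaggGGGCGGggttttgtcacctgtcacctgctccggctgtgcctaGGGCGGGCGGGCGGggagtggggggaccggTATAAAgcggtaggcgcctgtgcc
MUCL1 upstream: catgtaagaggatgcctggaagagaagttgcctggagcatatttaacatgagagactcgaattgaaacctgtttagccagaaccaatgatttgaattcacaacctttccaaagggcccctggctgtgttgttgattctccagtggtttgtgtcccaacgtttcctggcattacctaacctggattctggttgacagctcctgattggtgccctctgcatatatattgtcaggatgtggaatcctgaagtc
The window of 300 bases, from 250 before to 50 after the start, was searched on both strands for 6 motifs. MUC1 held TATAAA with its first base at -24 and GGGCGG at -96, -54, -50 and -46, of which the last 3 overlap each other. MUCL1 held 0 of the 6 motifs. Of all 35116 promoter windows, 11.5% hold TATAAA and 45% hold GGGCGG. The E-box CACGTG is in 7.26% of them, the AP-1 site TGACTCA in 4.95%, the STAT-type site TTCNNNGAA in 7.66% and the ETS-type site CCGGAAGT in 4.14%. G and C made up 65.7% of the MUC1 window and 46.3% of the MUCL1 window. These matches are letters only, and no binding was measured.

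MUC1 was the only member with a substantial level in MCF10A and MCF10AT1, and it was nearly lost in MCF10Ca1a. In MCF10Ca1a MUCL1 had the highest level of the 6, and MUC20 was also higher there than in the other lines, from a very low base. MUC16 had at most 21 counts in any library, MUC4 had 1 count in all 9 libraries together, and MUC15 had 0. In bulk RNA, fewer cells of a type and less RNA per cell cannot be told apart. Levels are in TPM (transcripts scaled to gene length and depth), and changes are log2 differences in counts from edgeR's quasi-likelihood test, called at an adjusted p under 0.05. The libraries held 32.9 to 69.5 M counts, with those of MCF10Ca1a (32.9 to 35.2 M) the smallest.

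**Figure D1:**
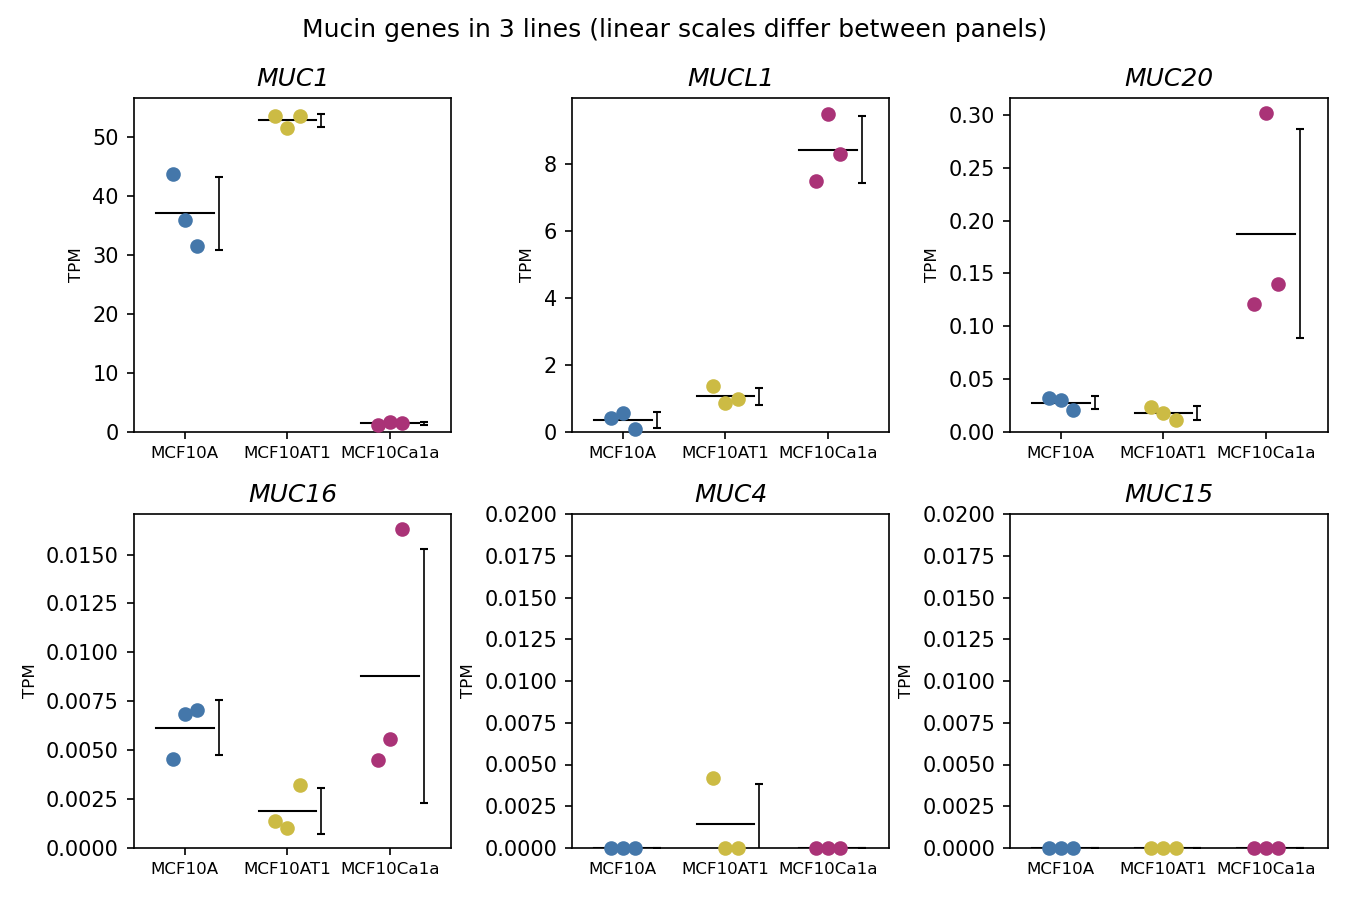
TPM of the 6 mucin genes (y axis, linear, a different range in each panel) in the 3 lines (x axis). Each point is 1 library, the line is the mean and the bar to its right the SD of 3 libraries. MUC1 lies between 31.5 and 53.6 TPM in MCF10A and MCF10AT1 and at most 1.71 TPM in MCF10Ca1a, where MUCL1 is highest, at 7.49 to 9.49 TPM.

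MUC1 (ENSG00000185499.17), at chr1:155185824-155192916 on the minus strand of GRCh38, encodes a cell-surface mucin with a cytoplasmic tail that takes part in signalling. It was measured at 43.8, 36.0 and 31.5 TPM in MCF10A, 53.6, 51.6 and 53.6 TPM in MCF10AT1, and 1.12, 1.71 and 1.44 TPM in MCF10Ca1a. The lines did not overlap and lay in the order MCF10AT1, MCF10A, MCF10Ca1a. Replicates were without overlap, measured as counts per library size, for 65.4%, 81.5% and 81.9% of all tested genes in the 3 comparisons. The mean was 37.1 ± 6.26 TPM (SD, n = 3), 52.9 ± 1.14 TPM (SD, n = 3) and 1.42 ± 0.298 TPM (SD, n = 3). Among the genes with a level above 0, 13.6% reached the MUC1 level in MCF10A, 9.14% in MCF10AT1 and 46.4% in MCF10Ca1a. The counts behind these levels were 2319 to 2586 in MCF10A, 3744 to 3815 in MCF10AT1 and 40, 49 and 49 in MCF10Ca1a.

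In MCF10AT1 MUC1 was 1.58-fold higher than in MCF10A (log2 change 0.66, SE 0.0651, adjusted p = 1e-06). In MCF10Ca1a it was 27.8-fold lower than in MCF10A (log2 change -4.80, SE 0.105, adjusted p = 6.96e-14) and 44.0-fold lower than in MCF10AT1 (log2 change -5.46, SE 0.103, adjusted p = 5.08e-14). Large shares of all genes were called in these comparisons: 61.6% of 17910 tested for MCF10AT1 against MCF10A, 80.9% for MCF10Ca1a against MCF10A and 78.4% for MCF10Ca1a against MCF10AT1. Falls of 16-fold or more were called for 3.86% of genes in MCF10Ca1a against MCF10A and for 2.53% against MCF10AT1. At the size of the MUC1 change or beyond, 516 genes (2.88%) fell against MCF10A and 265 (1.48%) against MCF10AT1. In MCF10AT1 against MCF10A, 16.2% of genes had a log2 change as high as that of MUC1 or higher, and edgeR's test for a change beyond 2-fold did not call MUC1 (adjusted p = 1).

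Most MUC1 counts were assigned to 1 transcript, MUC1-228, the coding transcript whose start follows the upstream sequence above. Its share of the gene's counts was 84.4 ± 1.82% (SD, n = 3) in MCF10A, 83.7 ± 1.23% (SD, n = 3) in MCF10AT1 and 87.1 ± 1.53% (SD, n = 3) in MCF10Ca1a. The next, MUC1-229, an intron-retaining transcript that begins 6 bases further downstream, took 7.07 ± 0.689%, 6.22 ± 0.553% and 9.56 ± 4.35% (SD, n = 3 each). These shares were not called different in any comparison (limma on log2 ratios, adjusted p = 0.871, 0.282 and 0.152), in which 10.7%, 47.6% and 40.8% of 10082 genes were called. With a larger pseudocount of 2 both comparisons with MCF10Ca1a passed the threshold (adjusted p = 0.049 and 0.0252), for ratio changes of 0.04 and 0.10 on the log2 scale. The whole gene had only 40 to 49 counts in each MCF10Ca1a library. No other member had a pair of transcripts with enough counts for this test.

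MUCL1 (ENSG00000172551.12, chr12:54830519-54858393, plus strand) was higher in MCF10AT1 than in MCF10A and higher again in MCF10Ca1a. It was measured at 0.399, 0.551 and 0.0815 TPM in MCF10A, 1.35, 0.846 and 0.969 TPM in MCF10AT1, and 7.49, 9.49 and 8.29 TPM in MCF10Ca1a. No replicates overlapped between lines. MCF10A had 4, 6 and 1 counts, MCF10AT1 16, 10 and 11, and MCF10Ca1a 42, 49 and 48, nearly all on the transcript ENST00000308796. MUCL1 was higher in MCF10AT1 than in MCF10A by a log2 change of 1.73 (SE 0.459, adjusted p = 0.00496), by 4.52 in MCF10Ca1a against MCF10A (SE 0.375, adjusted p = 5.97e-08) and by 2.79 in MCF10Ca1a against MCF10AT1 (SE 0.311, adjusted p = 1.52e-06). Over the pooled counts the ratio of MCF10Ca1a to MCF10A was 23.9, with a 95% exact interval of 13.0 to 49.1 that covers counting error only. Rises as large against MCF10A were fitted for 498 genes (2.78%). In counts, MUC1 and MUCL1 were alike in MCF10Ca1a, but per length MUCL1, whose coding sequence has 90 codons, was at 8.42 ± 1.01 TPM (SD, n = 3) and MUC1 at 1.42 TPM.

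MUC20 (ENSG00000176945.18, chr3:195720882-195741123, plus strand) was higher in MCF10Ca1a than in both other lines. MCF10A had 5, 4.45 and 6 counts of it, MCF10AT1 4, 4 and 3, and MCF10Ca1a 13.0, 22.5 and 12.1. In TPM these were 0.0317, 0.0299 and 0.0207, then 0.0237, 0.0180 and 0.0110, then 0.121, 0.302 and 0.140. Every MCF10Ca1a library lay above every library of the other lines, although it was the line with the fewest reads. The log2 change was 2.54 (SE 0.391, adjusted p = 3.68e-05) against MCF10A and 2.95 (SE 0.413, adjusted p = 1.59e-05) against MCF10AT1. Between MCF10AT1 and MCF10A it was -0.41 (SE 0.509, adjusted p = 0.534). MUC20 has a near-identical copy and some of its counts are fractional, so the assignment of its reads is uncertain: the pseudogene MUC20P1 took 2.66, 1.29 and 6.65 counts in MCF10Ca1a, 1.55 in 1 MCF10A library and 0 in the other 5. The overlapping noncoding gene MUC20-OT1, at 15.2 to 20.0 TPM on average, was not called in any comparison (log2 changes -0.13, 0.05 and 0.18, adjusted p = 0.253, 0.63 and 0.105). It was called in MCF10Ca1a against MCF10AT1 under 6 of 12 other settings (at most 0.35) and in MCF10AT1 against MCF10A under 3 (at lowest -0.39). Without the first MCF10A library it was called in both of these comparisons.

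MUC16 (ENSG00000181143.15, chr19:8848844-8981342, minus strand) was at the limit of detection. MCF10A had 11, 18 and 21 counts, MCF10AT1 4, 3 and 9, and MCF10Ca1a 6, 7 and 5, over a coding sequence of 43521 bases. The highest level was 0.0163 TPM, in the third MCF10Ca1a library. MUC16 was lower in MCF10AT1 than in MCF10A (log2 change -1.58, SE 0.431, adjusted p = 0.00589), and the replicates did not overlap. The change was -2.21 without the third MCF10AT1 library. This call was lost when the libraries were thinned to equal depth (log2 change -1.08, adjusted p = 0.115) and on the TPM scale. MCF10Ca1a differed by -0.54 (SE 0.432, adjusted p = 0.26) from MCF10A and by 1.04 (SE 0.514, adjusted p = 0.079) from MCF10AT1. Over 12 other settings the change against MCF10A ran from -0.61 to 2.28 and that against MCF10AT1 from 0.0099 to 2.28. The change against MCF10AT1 was called without the third MCF10AT1 library (1.66, adjusted p = 0.0135). The MUC16 mean was highest in MCF10A in counts but in MCF10Ca1a in TPM, and in the third MCF10Ca1a library 1.78 of its 5 counts were assigned to a short transcript.

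MUC4 (ENSG00000145113.22, chr3:195746765-195812277, minus strand), the neighbour of MUC20, had 1 count, in the first MCF10AT1 library, and 0 in the other 8. MUC15 (ENSG00000169550.14, chr11:26559033-26572233, minus strand) had 0 counts in all 9. A count of 0 allows up to 3 counts in a library, which is 0.0430 to 0.0892 CPM at these depths. Both fell under the filter on low counts and were not tested. The filter was passed by 4 of the 6 members, and MUC16, MUC20 and MUCL1 passed it through the lines where they were highest. In MCF10AT1 against MCF10A, 2 members rose (MUC1 and MUCL1), 1 fell (MUC16) and 1 was not called, beside 29.8% of all tested genes that rose and 31.8% that fell. In MCF10Ca1a against MCF10A, 2 rose (MUC20 and MUCL1), 1 fell (MUC1) and 1 was not called, beside 39% and 41.9%. The same 3 were called, in the same directions, against MCF10AT1, beside 38% and 40.3%. These comparisons share libraries. With 4 genes tested these counts are near the background.

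The summed level of the 19 genes with a mucin symbol in the table was 37.7 ± 6.39 TPM (SD, n = 3) in MCF10A, 54.2 ± 1.32 TPM (SD, n = 3) in MCF10AT1 and 10.6 ± 1.41 TPM (SD, n = 3) in MCF10Ca1a. MUC1 made up 97.5% to 99.0% of it in MCF10A, 97.3% to 98.0% in MCF10AT1 and at most 14.2% in MCF10Ca1a. In MCF10Ca1a 78.4% to 80.4% came from MUCL1, which held 0.256% to 1.5% in MCF10A. These shares hold per length only. In CPM, MCF10Ca1a had 1.33 for MUCL1 and 1.32 for MUC1 on average, below the 2.62 of MUC5AC and the 4.74 of MUC5B, whose transcripts are far longer.

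**Figure D2:**
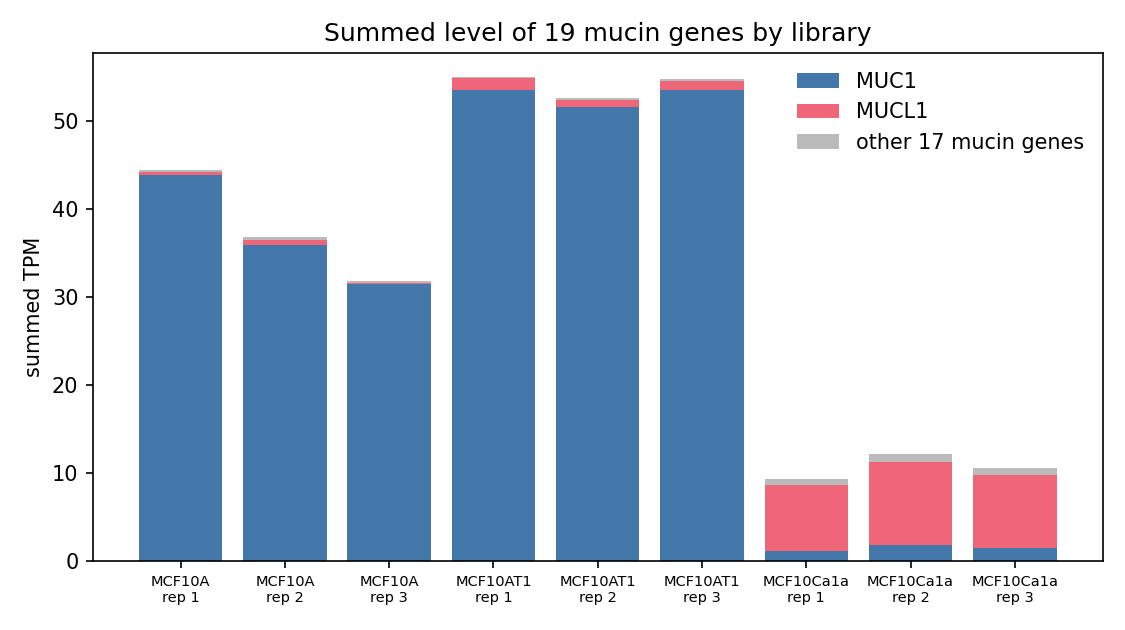
Summed TPM of the 19 genes with a mucin symbol (y axis, from 0) in each of the 9 libraries (x axis), split into MUC1, MUCL1 and the other 17 genes. MUC1 fills nearly all of each bar in MCF10A and MCF10AT1, and MUCL1 takes 78.4% to 80.4% of the shorter MCF10Ca1a bars.

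Of 18 further mucin and mucin-like genes in the table, 8 passed the filter: 1 rose and 3 fell in MCF10AT1 against MCF10A, 3 rose and 4 fell in MCF10Ca1a against MCF10A, and 4 rose and 4 fell in MCF10Ca1a against MCF10AT1. Of all tested genes 61.6%, 80.9% and 78.4% were called in these comparisons. The gel-forming airway and stomach mucins MUC5AC and MUC5B, neighbours on chromosome 11, were higher in MCF10Ca1a. For MUC5AC, MCF10A had 1, 2 and 0 counts, MCF10AT1 2, 5 and 5, and MCF10Ca1a 113, 72 and 91. MUC5B had 0 counts in all MCF10A libraries, 0, 2 and 1 in MCF10AT1, and 136, 172 and 188 in MCF10Ca1a. Nearly all of their counts came from 1 line, but there, at 0.157 and 0.351 TPM on average they stayed far below MUCL1 per length.

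For MUC5AC the ratio of MCF10Ca1a to MCF10A was 174 (95% interval of counting error 59.0 to 850), and the edgeR log2 change against MCF10AT1 was 5.36 (SE 0.344, adjusted p = 4.43e-09). Its fitted log2 change against MCF10A (7.24) was 8.07 without MCF10A replicate 2. MUC5B, at 0 counts in MCF10A, was at least 254-fold higher than there by the lower limit of the same interval, and 307-fold higher than in MCF10AT1 (interval 105 to 1496). Its fitted log2 change against MCF10AT1 (8.07) was 8.88 without MCF10AT1 replicate 2. The call of MUC5AC in MCF10AT1 against MCF10A (log2 change 1.88, adjusted p = 0.0426) rests on 12 against 3 counts. It was lost without MCF10A replicate 1 or 3, MCF10AT1 replicate 2 or 3 or MCF10Ca1a replicate 3, and under 9 of 12 other settings. MUC2 encodes the intestinal gel-forming mucin, and MCF10A had 15, 10 and 20 counts of it, MCF10AT1 5, 3 and 5, and MCF10Ca1a 10, 11 and 9. It was lower in MCF10AT1 than in MCF10A (-1.73, adjusted p = 0.00184) and higher in MCF10Ca1a than in MCF10AT1 (2.06, adjusted p = 0.000464). The first of these MUC2 calls was lost under 5 of 12 other settings and the second under 3, the TPM scale among them in both. MUC19 had 19 to 49 counts in each MCF10A and MCF10AT1 library and 0 in each MCF10Ca1a library, where it was at least 15.3-fold lower than in MCF10A by the limit of that interval (edgeR adjusted p = 2.84e-05), a call kept under 10 of 12 other settings.

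Among the mucin-like genes, CD164 (endolyn), a sialomucin, had the highest level, at 199 ± 4.68 TPM (SD, n = 3) in MCF10A, 165 ± 4.72 TPM (SD, n = 3) in MCF10AT1 and 133 ± 7.37 TPM (SD, n = 3) in MCF10Ca1a, and fell by 0.70 on the log2 scale in MCF10Ca1a against MCF10A (SE 0.0573, adjusted p = 5.2e-08). MCAM, the adhesion molecule also named MUC18, had the same direction as MUC1 in MCF10Ca1a. It was at 18.1, 14.1 and 12.6 TPM in MCF10A, 9.08, 9.32 and 8.24 TPM in MCF10AT1 and 0.161, 0.302 and 0.281 TPM in MCF10Ca1a (log2 change -5.95 against MCF10A, SE 0.155, adjusted p = 3.37e-13). Unlike MUC1 it was lower, not higher, in MCF10AT1 than in MCF10A (-0.58, SE 0.0881, adjusted p = 6.31e-05). The sialomucin PODXL fell at both steps (-0.99 in MCF10AT1 against MCF10A and -0.38 in MCF10Ca1a against MCF10AT1, adjusted p = 3.52e-06 and 0.0134), the latter lost on the TPM scale and without the second MCF10Ca1a library. The oviductal glycoprotein gene OVGP1 rose by 1.02 in MCF10Ca1a against MCF10A (SE 0.23, adjusted p = 0.00102). MUC21 was at 6, 6 and 4 counts in MCF10A and at 0 or 1 in the other libraries, and MUC3A, MUC6, MUC7 and EMCN were at 0 in all 9.

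**Figure D3:**
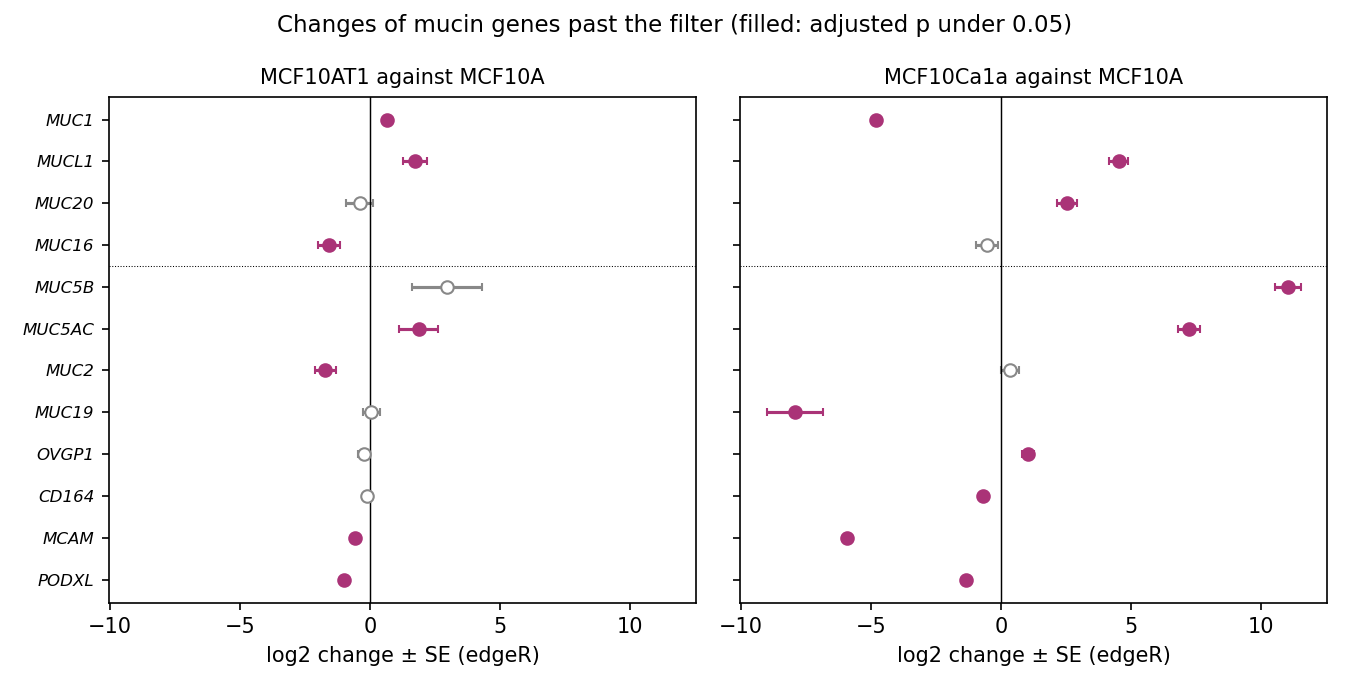
Log2 change ± SE from edgeR (x axis) of the 4 tested members (above the dotted line) and 8 other mucin and mucin-like genes, in MCF10AT1 (left) and MCF10Ca1a (right) against MCF10A. Filled points have an adjusted p under 0.05. MUC1 lies at 0.66 and -4.80 and MUCL1 at 1.73 and 4.52. For MUC5B and MUC19, with a line at 0 counts, the fitted size depends on the prior count.

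Within 250 kb of the MUC1 start, 30 other genes were tested. In MCF10AT1 against MCF10A, where MUC1 rose, 24 of them fell, 3 rose and 3 were not called, with a median of -0.65, beside 31.8% of all genes lower and 29.8% higher. In MCF10Ca1a against MCF10AT1, where MUC1 fell, 22 rose, 7 fell and 1 was not called, with a median of 0.73, beside 38% of all genes higher and 40.3% lower. Both comparisons share the MCF10AT1 libraries. Over 12 other settings, 2 to 24 of these neighbours fell in the first comparison and 10 to 23 rose in the second. In MCF10Ca1a against MCF10A, 11 rose, 9 fell and 10 were not called, with a median of 0.02, beside 39% of all genes higher and 41.9% lower. No tested neighbour fell as far as MUC1 in either comparison with MCF10Ca1a.

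Among these neighbours the sugar transporter gene SLC50A1 rose by 1.95 in MCF10Ca1a against MCF10A (adjusted p = 8.15e-13). PYGO2, a WNT co-activator, rose by 1.17 and the adaptor gene SHC1 by 1.03 in that comparison (adjusted p = 5.19e-11 and 1.23e-09). CKS1B, a cell cycle gene, fell by 1.48 and DCST1-AS1, an antisense gene, fell by 2.39 (adjusted p = 1.33e-09 and 6.21e-08). THBS3-AS1, whose start is 2.09 kb from that of MUC1 and which was picked after its values were seen, had the lowest change of these neighbours (-4.14 against MCF10A, SE 0.634, adjusted p = 3.49e-05). It had at most 36.0 counts on average, and whether the quantification used strand is not given in the sources used here. At another locus, MUC20 was the member of the MUC4 region with the largest rise in MCF10Ca1a.

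**Figure D4:**
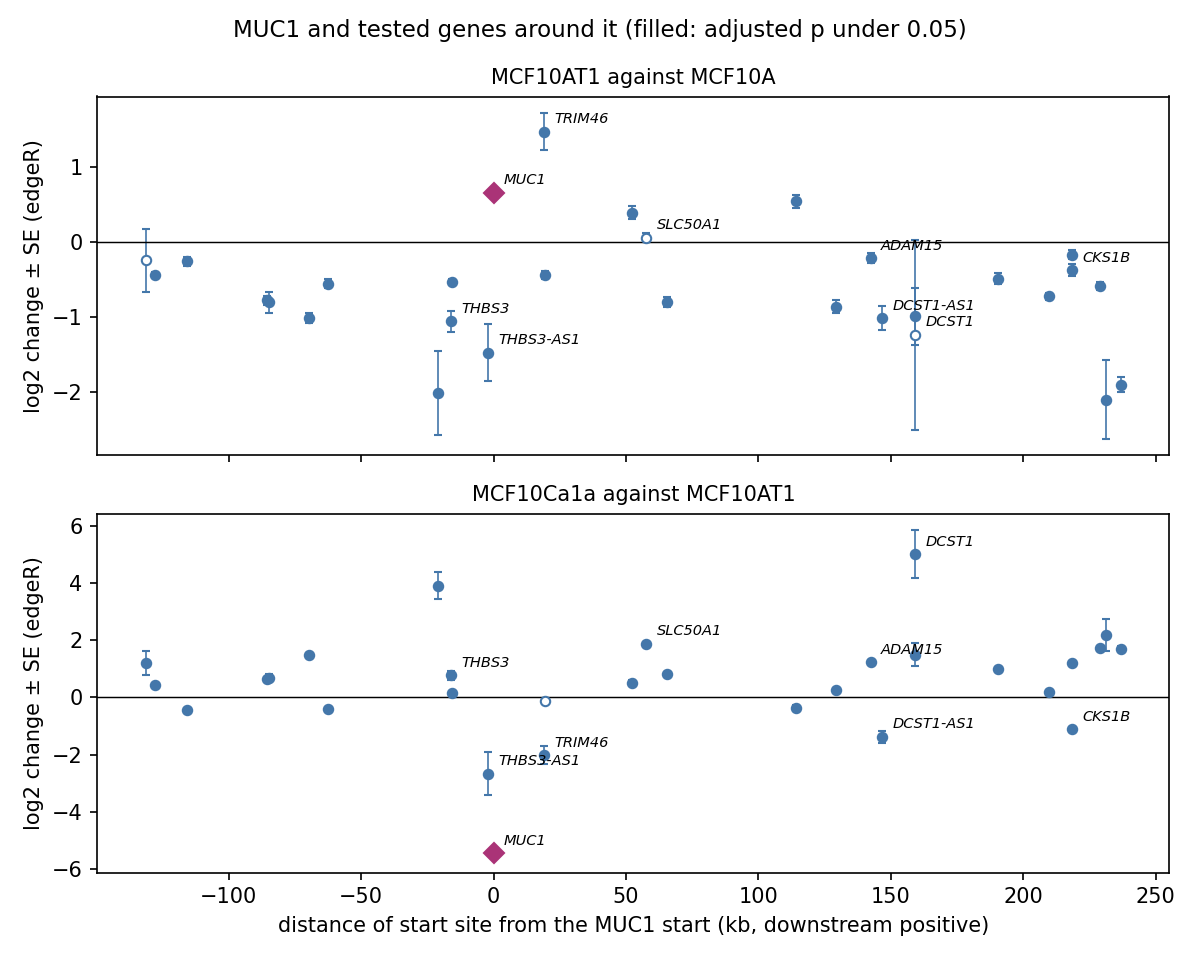
Log2 change ± SE from edgeR (y axis) against the distance of each gene's start from that of MUC1 (x axis, kb, positive downstream of the MUC1 start), in MCF10AT1 against MCF10A (top) and MCF10Ca1a against MCF10AT1 (bottom). Of 30 tested neighbours, 1 is not drawn. Filled points have an adjusted p under 0.05. The MUC1 diamond lies at 0.66 among mostly lower neighbours in the top panel and at -5.46, below every neighbour drawn, in the bottom panel.

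The genes most like each member were taken by the root mean square distance of centred log2(CPM + 0.1), with CPM the counts scaled to library size, over the 9 libraries, among genes with a symbol and at least 100 counts on average in some line. For MUC1, among 12620 genes, these were ADAMTS7 (distance 0.188), a metalloprotease gene, RHOBTB1 (0.222) and ZNF20 (0.227), against a median distance of 2.36. Their fitted log2 changes in MCF10Ca1a against MCF10A were -5.21, -6.15 and -10.06, beside -4.80 for MUC1, since the offset of 0.1 sets the level of genes near 0. ADAMTS7 was at 2.61, 3.45 and 0.106 TPM on average in MCF10A, MCF10AT1 and MCF10Ca1a, and 48 genes lay within a distance of 0.5. For MUCL1 they were VASN (0.185), NFE2L3 (0.192) and VSIR (0.192), with 215 genes within 0.5. The offset also reduces the change of MUCL1, at 4.52 in the fit, and these genes had changes of 3.13 to 3.36 in MCF10Ca1a against MCF10A. VSIR, which encodes an immune checkpoint protein, was at 10.5, 17.9 and 98.1 TPM on average in the 3 lines. For MUC20 they were SP4, ZBTB41 and ZNF333, and for MUC16 FTX, ZNF692 and PSMB8-AS1, at 0.153 to 0.201. For these last 2 members 1433 and 3226 genes lay within 0.5. At the low counts of MUCL1, MUC20 and MUC16 a short distance is of little weight. ZNF20 is listed at 0 in MCF10Ca1a, and its change in MCF10AT1 against MCF10A (0.43) turned to -0.03 on the TPM scale.

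The enzymes that build mucin O-glycans changed in both directions. The first sugar is added by polypeptide N-acetylgalactosaminyltransferases, of which 14 of 20 listed genes were tested. In MCF10Ca1a against MCF10A 5 rose, 6 fell and 3 were not called, with a median of -0.18. GALNT3, a family member of many epithelia, was at 67.6 ± 10.7 TPM (SD, n = 3) in MCF10A and 143 ± 3.18 TPM (SD, n = 3) in MCF10Ca1a (2.07-fold higher, adjusted p = 4.32e-09), and GALNT2 rose by 0.36 (adjusted p = 0.0025). GALNT14 was at 8.20, 6.33 and 5.29 TPM in MCF10A, at 0 in all MCF10AT1 libraries and at 0.0414, 0.0442 and 0 TPM in MCF10Ca1a, so it was nearly confined to MCF10A among these 9 libraries. GALNT6 fell by 0.997 (adjusted p = 7.13e-08). In MCF10AT1 against MCF10A 6 rose, among them GALNT7 (0.47, adjusted p = 3.16e-05), and 6 fell, among them GALNT2 (-0.78, adjusted p = 6.72e-06), beside 29.8% of all genes higher and 31.8% lower. The 6 rises were 2 to 6 under other settings.

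Of 7 tested enzymes that extend and branch the chain, 6 rose and 1 fell (C1GALT1C1, the chaperone of the core 1 enzyme, -0.35, adjusted p = 0.0003) in MCF10AT1 against MCF10A, beside 29.8% of all genes higher and 31.8% lower, and 4 rose, 2 fell and 1 was not called in MCF10Ca1a against MCF10A. Under other settings 2 to 6 of these enzymes rose and 0 to 1 fell in MCF10AT1 against MCF10A. B3GNT3, which extends core 1 chains, was at 6.84, 5.00 and 4.55 TPM in MCF10A, 32.5, 31.4 and 29.9 TPM in MCF10AT1 and 94.2, 85.7 and 86.9 TPM in MCF10Ca1a. It rose at both steps, by 2.58 (SE 0.0799, adjusted p = 8.36e-12) and then 1.13 (SE 0.0722, adjusted p = 4.36e-09). GCNT2, the I-branching enzyme, rose by 3.78 in MCF10Ca1a against MCF10A (SE 0.0882, adjusted p = 1.25e-13), and GCNT4, a core 2 enzyme, fell by 5.20 (SE 0.25, adjusted p = 1.55e-10) to 0.0345 ± 0.00790 TPM (SD, n = 3).

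Sialic acid and fucose cap the chains. The list of capping genes also holds ST6GAL1 and FUT8, which act on N-linked chains. Of 14 tested capping genes, 5 rose, 5 fell and 4 were not called in MCF10AT1 against MCF10A (all genes 29.8% higher and 31.8% lower), and 6 rose, 6 fell and 2 were not called in MCF10Ca1a against MCF10A. ST3GAL1, which caps core 1 with sialic acid, was at 8.10, 7.25 and 5.90 TPM in MCF10A, 13.6, 13.2 and 13.1 TPM in MCF10AT1 and 46.6, 44.7 and 46.8 TPM in MCF10Ca1a, so that the lines did not overlap. Its log2 change was 2.77 in MCF10Ca1a against MCF10A (SE 0.0842, adjusted p = 1.47e-12). FUT3, the Lewis fucosyltransferase, rose by 3.02 (SE 0.138, adjusted p = 8.77e-11) and ST6GAL1 fell by 3.98 (SE 0.126, adjusted p = 2.24e-12). Rises and falls were about as frequent among the initiating and capping enzymes as in the background of this comparison (39% higher and 41.9% lower), and with 7 extending enzymes tested nothing can be read from their share.

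**Figure D5:**
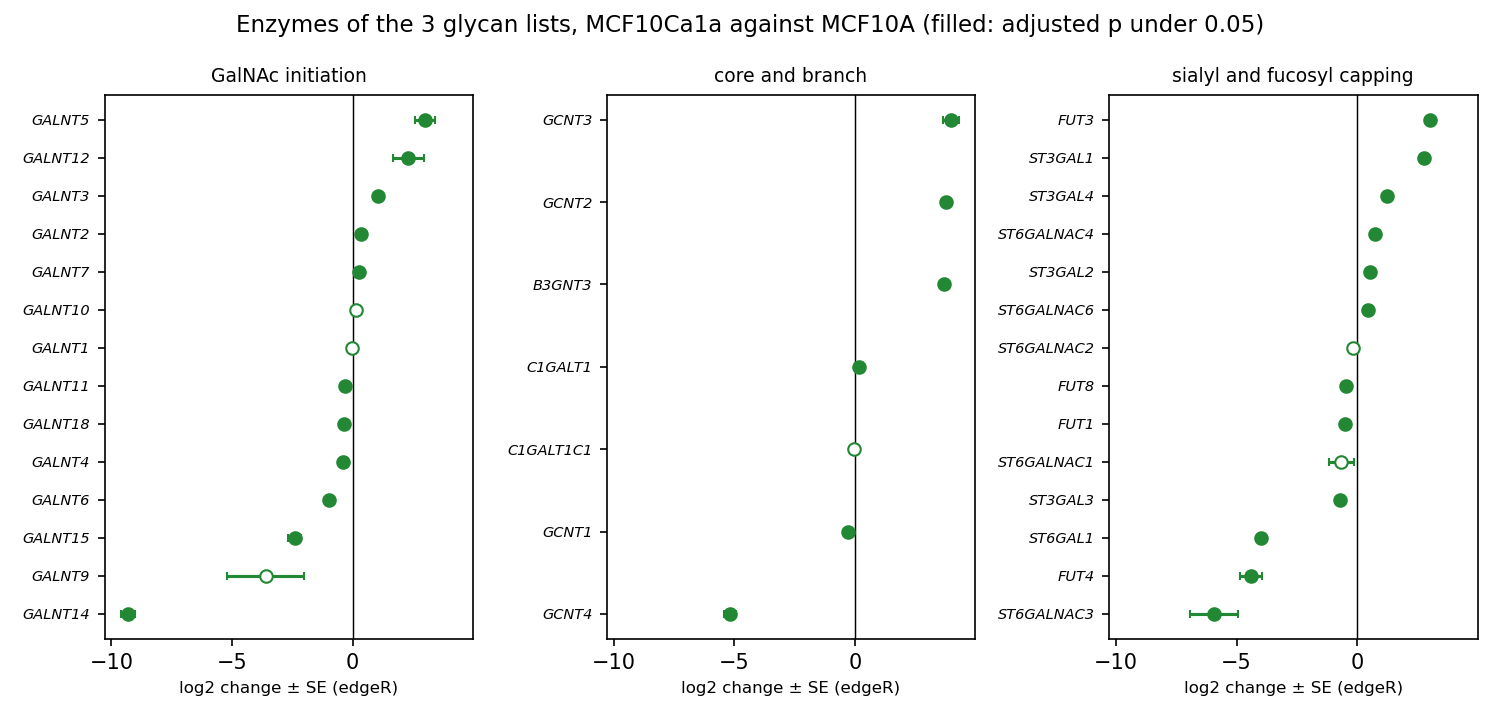
Log2 change ± SE from edgeR (x axis) of the tested enzymes of the 3 glycan lists in MCF10Ca1a against MCF10A, ordered by change within each list. Filled points have an adjusted p under 0.05. Genes lie on both sides of 0 in every list, with B3GNT3 at 3.71, ST3GAL1 at 2.77, ST6GAL1, which acts on N-linked chains, at -3.98 and GCNT4 at -5.20.

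Of 8 tested proteases on a list drawn up for mucin shedding, 6 rose and 2 fell in MCF10Ca1a against MCF10A, with a median of 0.66, beside 39% of all genes higher and 41.9% lower. With a minimum log2 change of 1, only 1 of these rises was called. With 8 genes tested nothing can be read from their share. ADAM17, which cleaves MUC1 from the surface, was at 23.5 ± 2.03 TPM (SD, n = 3) in MCF10A, 19.1 ± 1.31 TPM (SD, n = 3) in MCF10AT1 and 49.0 ± 0.335 TPM (SD, n = 3) in MCF10Ca1a (log2 change 0.92 against MCF10A, SE 0.0528, adjusted p = 1.08e-09). ADAM15, itself 142 kb from the MUC1 start, rose by 1.02 (adjusted p = 1.05e-08). ADAM8 was 3.19-fold lower (log2 change -1.67, adjusted p = 3.77e-10), but higher in MCF10AT1 than in MCF10A (1.54, adjusted p = 2.28e-10). MMP14, which also cleaves MUC1, fell by 0.87 in MCF10Ca1a against MCF10A (adjusted p = 8.69e-07), and its change of -0.23 against MCF10AT1 (adjusted p = 0.0345) was kept under 4 of 12 other settings and turned to 0.17 on the TPM scale. It was also lost without MCF10AT1 replicate 1, 2 or 3 or MCF10Ca1a replicate 1 or 2.

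Of 14 tested genes for proteins that bind mucins, 6 rose and 8 fell in MCF10Ca1a against MCF10A, with a median of -0.30, near the 39% higher and 41.9% lower of all genes. MSLN, which encodes mesothelin, the MUC16 partner, was at 9.94, 9.51 and 7.57 TPM in MCF10A, 9.34, 9.66 and 9.47 TPM in MCF10AT1 and 0.137, 0.101 and 0.129 TPM in MCF10Ca1a. The TPM of MCF10A and MCF10AT1 overlapped, with a log2 change of 0.25 in counts (adjusted p = 0.00655), and MSLN was far lower in MCF10Ca1a than in MCF10A (-6.39, SE 0.147, adjusted p = 1.07e-13). ICAM1, an adhesion molecule that binds MUC1, was at 10.9, 8.55 and 7.48 TPM in MCF10A, 0.00492, 0.0112 and 0.00519 TPM in MCF10AT1 and 0.146, 0.0592 and 0.246 TPM in MCF10Ca1a, so it was nearly absent already in MCF10AT1, where MUC1 was highest. The receptor genes ERBB3 and ERBB2 rose by 1.78 and 1.19 in MCF10Ca1a against MCF10A (adjusted p = 2.56e-11 and 2.75e-08). LGALS3, which encodes galectin-3, rose by 0.76 in MCF10AT1 against MCF10A (adjusted p = 4.3e-07).

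Of 9 tested genes for apical membrane linkers and polarity proteins, 6 rose and 1 fell in MCF10AT1 against MCF10A (all genes 29.8% higher and 31.8% lower), and 4 rose and 2 fell in MCF10Ca1a against MCF10A (all genes 39% and 41.9%). Of the 6 rises, 2 to 5 were called from TPM or length-scaled or scaled counts, and 0 with a minimum log2 change of 1. SLC9A3R1, which ties membrane proteins to ezrin, rose by 1.56 and PARD6B, a polarity gene, by 2.49 in the latter (adjusted p = 3.94e-11 and 2.41e-11), while RDX, which encodes radixin, fell by 0.71 (adjusted p = 1.02e-08). Ezrin (EZR) rose by 0.54 in MCF10AT1 (adjusted p = 3.38e-05).

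Of 20 listed regulators and products of secretory epithelium, 10 were tested, of which 6 rose and 4 fell in MCF10Ca1a against MCF10A, beside 39% of all genes higher and 41.9% lower. The ETS factor gene ELF3 was at 0.497, 0.635 and 0.655 TPM in MCF10A, 6.42, 5.72 and 6.17 TPM in MCF10AT1 and 27.9 to 29.8 TPM in MCF10Ca1a (log2 change 5.05 in MCF10Ca1a against MCF10A, SE 0.0872, adjusted p = 8.11e-15). Its order of lines was that of MUCL1, but also that of B3GNT3, ST3GAL1 and EPCAM. EHF, related to ELF3, rose by 2.10 in MCF10Ca1a against MCF10A (adjusted p = 6.8e-13). CLCA2, a gene of the chloride channel accessory family, fell by 8.16 (SE 0.0997, adjusted p = 8.07e-16), from 83.3 ± 2.80 TPM to 0.304 ± 0.0296 TPM (SD, n = 3 each), and the protease inhibitor gene SLPI fell by 1.42 (adjusted p = 5e-10). WFDC2, whose product is the tumour marker HE4, was at 11.4 to 13.0 TPM in MCF10AT1, at 0.130 to 0.212 TPM in MCF10A and at 0 in all MCF10Ca1a libraries.

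The epithelial identity of the lines was read from marker genes. All 8 basal markers had at least 10 counts in every library, and so did 9 of 10 luminal markers in MCF10A and all 10 in the other lines. In MCF10Ca1a against MCF10A, with 39% of all genes higher and 41.9% lower, 8 of 10 luminal markers rose and 1 fell (median 2.11), and EPCAM was at 40.1, 170 and 390 TPM on average in the 3 lines. Of 8 basal markers 5 fell, among them KRT14 (-5.65, adjusted p = 4.18e-15), and the other 3 rose, among them ITGB4 (1.42, adjusted p = 3.79e-09) and KRT17 (1.34, adjusted p = 2.22e-10). MUC1, a product of luminal cells in the normal breast, fell in that comparison. Summed markers of other cell types were low beside these: at most 31.5 TPM for 7 fibroblast genes, 20.8 TPM for 5 endothelial genes and 33.5 TPM for 6 immune genes, against 1981 to 3714 TPM for luminal genes. They differed between the lines, however. Fibroblast genes summed to 6.43 to 7.23 TPM in MCF10A, 27.7 to 31.5 TPM in MCF10AT1 and 1.94 to 2.33 TPM in MCF10Ca1a. Endothelial genes summed to 0.757 to 1.36 TPM in MCF10A and MCF10AT1 and 15.7 to 20.8 TPM in MCF10Ca1a, with CDH5 at 0 in MCF10A and MCF10Ca1a. Of these 5 genes, 3 had at least 10 counts in every library in MCF10A, 2 in MCF10AT1 and 1 in MCF10Ca1a. Immune genes summed to 16.1 to 22.7 TPM in MCF10A, 6.21 to 6.61 TPM in MCF10AT1 and 30.5 to 33.5 TPM in MCF10Ca1a, with the T cell gene CD3E at 0 in every library. Of these 6 genes, 3 had at least 10 counts in every library in MCF10A, 2 in MCF10AT1 and 1 in MCF10Ca1a. Both sums were thus highest in MCF10Ca1a, where the fewest of the listed genes reached that count. The part of these marker differences in the mucin levels was not tested.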

How the data were processed

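RNA of MCF10A, MCF10AT1 and MCF10Ca1a was sequenced in 3 libraries per line after poly-A selection with a stranded kit, per the labels' protocols. Salmon and hg38 are named in the submitters' processing notes, and the annotation release is not given in the sources used here. The authors deposited estimated counts and TPM per gene and per transcript. The estimated counts, also those deposited as scaled and length-scaled, were rounded here.

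Genes were kept with filterByExpr (minimum count 10, minimum total 15), which left 17910, and tested with edgeR 4.0.16 (quasi-likelihood, TMM, all 9 libraries in 1 fit, Benjamini-Hochberg over all genes). Standard errors come from the log2 change and its F statistic. Transcript shares were tested with limma 3.58.1 on log2 ratios (pseudocount 0.5). Both tests were also run on simulated counts, with the same spread for all transcripts in the usage test, and the outcome is not reported here. Alternatives included DESeq2 1.42.0, limma on log2(TPM + 1), which understates changes of low genes, and each library left out. Positions came from GENCODE 29 by identifier (92.9% matched). Counting intervals (95%) and floors (3 counts) cover counting error only.

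The members, lists and tests were chosen with earlier results of these data known. Genes named are the members, other mucins and their copies, and per list and comparison up to 2 rises and 2 falls with an adjusted p under 0.05, 100 counts on average in some line and no overlap in CPM. They also include up to 3 such neighbours per direction and the 3 genes most like each member. Exceptions are stated, and MUC19, MUC5B and other low mucins are given as counts. Promoters of MUC15 and MUC20 were not analysed here. Some genes that the naming rule or the marker lists hold are not reported here.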

Additional observations from a re-analysis of the deposited data

How the results depend on the processing

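The calls of MUC1, MUC20 and MUCL1 in both comparisons with MCF10Ca1a kept their direction and stayed past the threshold under all 12 alternatives and all 9 fits without a library. A minimum log2 change of 1 left 1994, 6252 and 5148 genes called (11025, 14491 and 14034 without it), and in MCF10AT1 against MCF10A it ended the calls of MUC1 (0.66, adjusted p = 1), MUC16 (-1.58, adjusted p = 0.237) and MUCL1 (1.73, adjusted p = 0.163). The MUC16 call in that comparison was also lost with thinning (-1.08), with limma on log2(TPM + 1), filtered or not (-0.00614), on log2(TPM + 0.1) (-0.0592), and with the scaled counts, which round to 0 or 1 (0). MUC16 in MCF10Ca1a against MCF10AT1 was called with the length-scaled counts (1.89, adjusted p = 0.0136), and leaving out a library gave 0.75 to 1.66. On both TPM scales MMP14 in MCF10Ca1a against MCF10AT1 turned to 0.170 and 0.172 and ZNF20 in MCF10AT1 against MCF10A to -0.0318 and -0.0526. These causes were not tested. All genes' median change in MCF10Ca1a against MCF10AT1 was 0.13 on the TPM scale and -0.04 on the count scale.

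For transcript usage, a pseudocount of 2 called MUC1 in MCF10Ca1a against MCF10A (0.0410) and against MCF10AT1 (0.104). Genes called in MCF10AT1 against MCF10A fell from 1077 to between 651 and 1029 without a library. The replicate numbers did not pair the libraries: same-numbered libraries correlated at -0.0747 to 0.0633, and a fit with the replicate block called 395 genes in that usage test, ended the MUC5AC call in MCF10AT1 against MCF10A (adjusted p = 0.0565) and changed no call of a member. Low counts limit MUC4, MUC15, MUC16, MUC20 and, in MCF10A, MUCL1.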
